A study of Mus musculus with 9 samples.

Results

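Classical cadherins are membrane proteins that hold neighbouring cells together, and catenins tie their tails to the actin cytoskeleton. The 10 genes described here are 6 cadherins (Cdh1, Cdh2, Cdh3, Cdh4, Cdh6 and Cdh11), 3 catenins (Ctnnb1, Ctnna1 and Ctnnd1) and Epcam, an epithelial adhesion molecule that is not a cadherin. They were taken by gene symbol from the FPKM table, which lists 47729 genes, and all 10 had a mean of at least 0.1 FPKM. RNA was sequenced from a mouse embryonic stem cell (ESC) line kept in LIF/serum, in which doxycycline (dox) at 1 µg/ml switches on a forced homodimer of E2A, a construct of tethered E47 sequences. E47 is a splice form of E2A, a basic helix-loop-helix factor encoded by Tcf3. The 0 h libraries came from the same line without dox, and the 18 h and 24 h libraries from cells held in dox for those times, with n=3 biological replicates each. Every group carried the construct, and no library without dox was taken at 18 h or 24 h, so dox, the construct it induces and time in culture cannot be told apart. In these bulk RNA samples fewer cells of a type and less RNA per cell cannot be told apart either.

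E-cadherin, encoded by Cdh1, is the main cadherin of epithelia and of ESCs. In an epithelial-mesenchymal transition (EMT), cells classically lose E-cadherin and gain N-cadherin, encoded by Cdh2, a change known as the cadherin switch. Snail, Zeb and Twist proteins are the factors best known for it, and E-boxes, the CANNTG sites that they and E2A bind, lie in the Cdh1 promoter. The comparison below asks whether such a switch in mRNA accompanied changes of EMT factors in dox.

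The construct and the cell type were checked first. Tcf3 read 39.1±1.80 FPKM (mean±s.d.) before dox, 110±5.52 by 18 h and 102±7.55 by 24 h, counting construct and endogenous transcripts together. All 10 ESC markers averaged at least 1 FPKM at 0 h, and the list summed to 1313 to 1999 FPKM at 0 h and 981 to 1596 FPKM at 24 h. Of these, Nanog passed the test as higher at 24 h, and Pou5f1, Tdgf1 and Fgf4 as lower. With replicate numbers in the limma fit as a block, Klf4 also passed as higher (adjusted p=0.0101) and Dppa5a as lower (adjusted p=0.00338). Primitive endoderm markers summed to at most 1.31 FPKM in any library, fibroblast markers to at most 14.7 FPKM and endothelial and blood markers to at most 7.64 FPKM, and none of these lists was higher at 24 h beyond its range at 0 h. The highest gene of each list over all libraries was Dppa5a (777 FPKM at 0 h), Gata6 (0.315), Dcn (3.61) and Tek (4.47). No marker was at 0 in all libraries of a group. Genes had 22028363 to 26471569 reads per library.

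E-cadherin mRNA did not fall against 0 h. Cdh1 (chr8:106603351-106670246, plus strand, GRCm38) read 214, 228 and 244 FPKM before dox, 244, 264 and 259 FPKM by 18 h and 227, 251 and 245 FPKM by 24 h. The 18 h libraries lay just above all of the 0 h libraries, and the 24 h libraries overlapped them. Within every replicate number the 24 h library was above the 0 h library and below the 18 h library. Against 0 h, the log2 fold-change (log2FC, of FPKM+0.1) after 24 h was 0.07, with a 95% confidence interval of -0.08 to 0.22. Cdh1 did not pass the test, an adjusted p of at most 0.05 in limma (adjusted p=0.506). That interval reaches down to 0.948 of the 0 h level. Its sign varied with scaling, since the log2FC at 24 h was -0.0027 (interval -0.16 to 0.15) with median centring and 0.21 (interval 0.03 to 0.39) with quantile normalization. Median centring also put the median log2FC of all genes at -0.073. That median was 0.004 as reported and -0.002 with quantile normalization. At 18 h it was 0.16 (adjusted p=0.171), and Cdh1 passed the test as a gain only when replicate numbers entered the fit as a block (adjusted p=0.0265).

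N-cadherin mRNA stayed low beside it. Cdh2, on chromosome 18, read 3.16, 4.98 and 3.64 FPKM before dox, 4.10, 4.87 and 4.20 FPKM by 18 h and 4.45, 5.60 and 4.38 FPKM by 24 h. The groups overlapped at both times, with replicate 2 the highest in each, and within every replicate number the 24 h library was above the 0 h library. The log2FC at 24 h was 0.30 (interval -0.07 to 0.68), and Cdh2 did not pass the test (adjusted p=0.270) unless the replicate block was used (adjusted p=0.0405, interval 0.10 to 0.50). Leaving out 1 library moved it to between 0.16 (without 0 h replicate 1) and 0.48 (without 0 h replicate 2), and to 0.19 without 24 h replicate 2, with no call. An increase of more than 1.60-fold lay outside the wider of those intervals.

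Within each library Cdh1 exceeded Cdh2 by a wide margin. The ratio of their FPKM values, which are corrected for gene length, was 45.8 to 67.7 at 0 h, 54.2 to 61.6 at 18 h and 44.7 to 55.8 at 24 h. On the log2(FPKM+0.1) scale Cdh2 minus Cdh1 was -5.85±0.31 at 0 h, -5.83±0.09 at 18 h and -5.62±0.16 at 24 h (n=3). The ranges at 0 h and 24 h overlapped. Within each replicate number, however, the difference was less negative after 24 h, at -5.64 against -6.04 in replicate 1, -5.46 against -5.49 in replicate 2 and -5.77 against -6.03 in replicate 3. The difference itself was not tested.

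**Figure D1:**
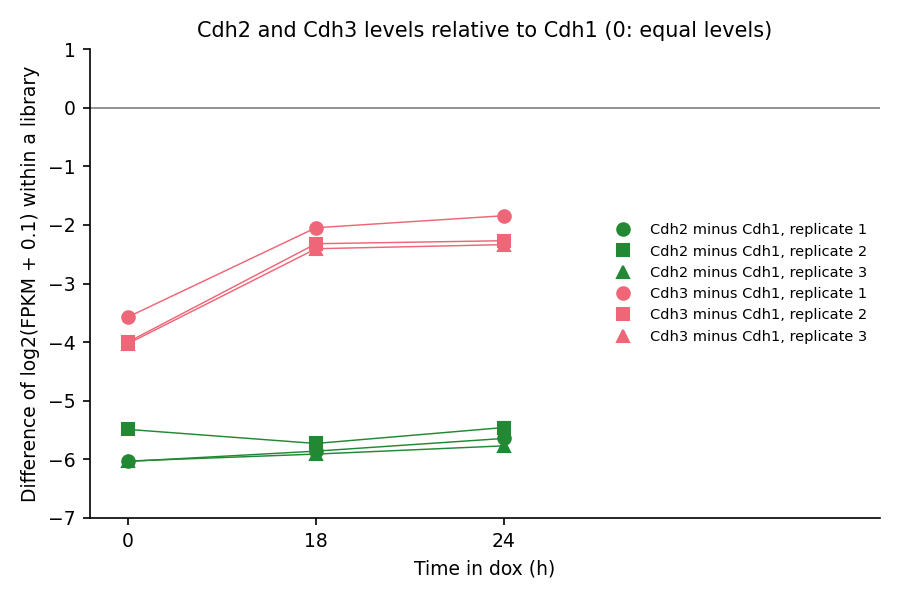
Levels of Cdh2 (green) and Cdh3 (red) relative to Cdh1 in each library, as the difference of log2(FPKM+0.1), at 0, 18 and 24 h in dox drawn as evenly spaced categories; lines join libraries of the same replicate number and 0 marks equal levels. Cdh2 minus Cdh1 stayed between -6.04 and -5.46 throughout, while Cdh3 minus Cdh1 went from between -4.03 and -3.57 at 0 h to between -2.34 and -1.84 at 24 h.

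The cadherin that changed most in absolute level was P-cadherin. Cdh3, which encodes it, is best known from placenta and the basal layer of epithelia. It lies upstream of Cdh1 on the same strand (chr8:106510891-106557297), with a gap of 46.1 kb between the genes. Cdh3 read 17.9, 14.2 and 14.9 FPKM before dox, 59.0, 52.7 and 48.8 FPKM by 18 h and 63.3, 51.9 and 48.4 FPKM by 24 h. Every library in dox was above every 0 h library, and replicate 1 was the highest at each time. The log2FC was 1.77±0.12 (±SE, adjusted p=0.000146) at 18 h and 1.79±0.12 (adjusted p=0.000108) at 24 h, or 3.46-fold (interval 2.86 to 4.18) at the later time. Between 18 h and 24 h it was 0.02 (interval -0.25 to 0.30), so the gain was in place by 18 h. Cdh3 passed the test at both times in each of the 22 alternative analyses.

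The rise of Cdh3 changed the make-up of cadherin mRNA. Summed over the 6 cadherins, the level went from 250±14.1 FPKM before dox to 315±7.28 by 18 h and 303±7.08 by 24 h. Cdh1 made up 91.4±0.905% of that sum at 0 h, 81.0±1.78% at 18 h and 79.5±2.70% at 24 h, while Cdh3 made up 6.30±1.10%, 17.0±1.87% and 18.0±2.84%. Cdh2 held 1.57±0.373% at 0 h and 1.59±0.188% at 24 h. The ratio of Cdh1 to Cdh3 was 11.9 to 16.4 at 0 h and 3.59 to 5.06 at 24 h. The shares of Cdh1 and Cdh3 did not overlap between 0 h and either time in dox, and no test was made of these shares.

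**Figure D2:**
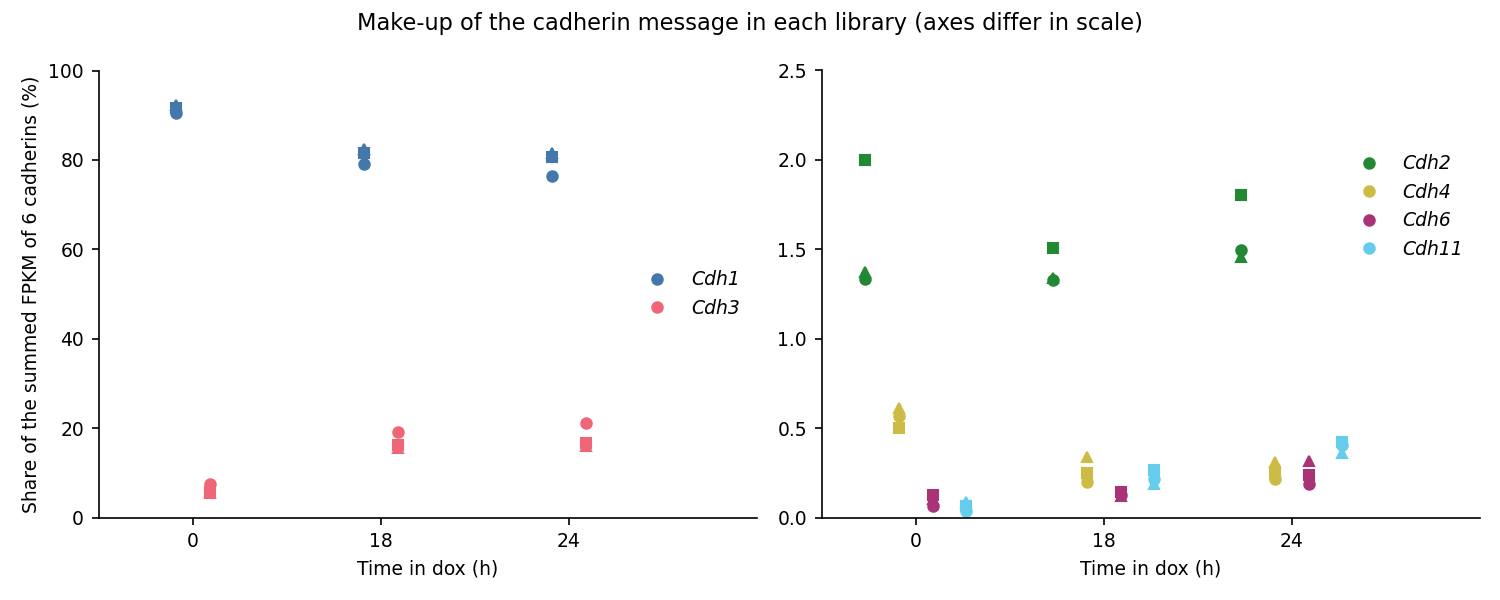
Share of the summed FPKM of the 6 cadherins held by each, per library, at 0, 18 and 24 h in dox (circle, square and triangle are replicates 1, 2 and 3; the right panel has a smaller scale). Cdh3 rose from 5.62% to 7.57% at 0 h to 16.1% to 21.3% at 24 h, and Cdh2, Cdh4, Cdh6 and Cdh11 each stayed at or below 2.0% in all libraries.

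The remaining cadherins were weakly expressed and went in different directions. Cdh11 encodes OB-cadherin, a type II cadherin known from mesenchyme and bone (chr8:102632095-102785642, minus strand). It read 0.0895, 0.158 and 0.229 FPKM before dox, 0.664, 0.857 and 0.598 FPKM by 18 h and 1.20, 1.32 and 1.09 FPKM by 24 h. These values rest on 9, 16 and 21 reads at 0 h and 129, 142 and 125 reads at 24 h. The 3 groups did not overlap, and the log2FC was 1.66±0.24 (adjusted p=0.00524) at 18 h and 2.37±0.24 (adjusted p=0.000844) at 24 h. The added 0.1 FPKM understates such changes at low levels, and on the recovered reads edgeR gave 7.56-fold at 24 h against 5.15-fold on the log2(FPKM+0.1) scale. Adding 1 FPKM in place of 0.1 gave a 24 h log2FC of 0.93.

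Cdh6 encodes K-cadherin, a type II cadherin known from developing kidney and neural tube (chr15:13028701-13173675, minus strand). It read 0.159, 0.317 and 0.280 FPKM before dox, 0.399, 0.473 and 0.377 FPKM by 18 h and 0.568, 0.744 and 0.949 FPKM by 24 h, from 10 to 20 reads at 0 h and 38 to 68 reads at 24 h. The 3 groups did not overlap. The log2FC was 0.58±0.25 at 18 h (adjusted p=0.190) and 1.28±0.25 at 24 h (adjusted p=0.0146), so Cdh6 passed the test at 24 h. It missed the threshold without 24 h replicate 2 (adjusted p=0.0544) or 24 h replicate 3 (adjusted p=0.0630), and adding 1 FPKM in place of 0.1 gave a 24 h log2FC of 0.48.

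Cdh4 encodes R-cadherin, a close relative of N-cadherin known from retina and brain (chr2:179442431-179899373, plus strand). It read 1.35, 1.25 and 1.63 FPKM before dox, 0.615, 0.802 and 1.07 FPKM by 18 h and 0.645, 0.772 and 0.931 FPKM by 24 h. All libraries in dox were below all 0 h libraries, with replicate 3 the highest at each time. The log2FC was -0.72±0.21 at 18 h (adjusted p=0.0697) and -0.78±0.21 at 24 h (adjusted p=0.0467). Adding 1 FPKM in place of 0.1 gave -0.43 at 24 h. The 24 h call was near the threshold and was lost in 10 of 22 alternatives, with no filter (adjusted p=0.0872), no intensity trend (0.0550) or only the times compared (0.0537), and without any 1 of the 0 h or 24 h libraries or without 18 h replicate 2, with an adjusted p of up to 0.126. At 18 h it passed with the replicate block (adjusted p=0.0109) and with edgeR on the recovered reads (adjusted p=0.0313).

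**Figure D3:**
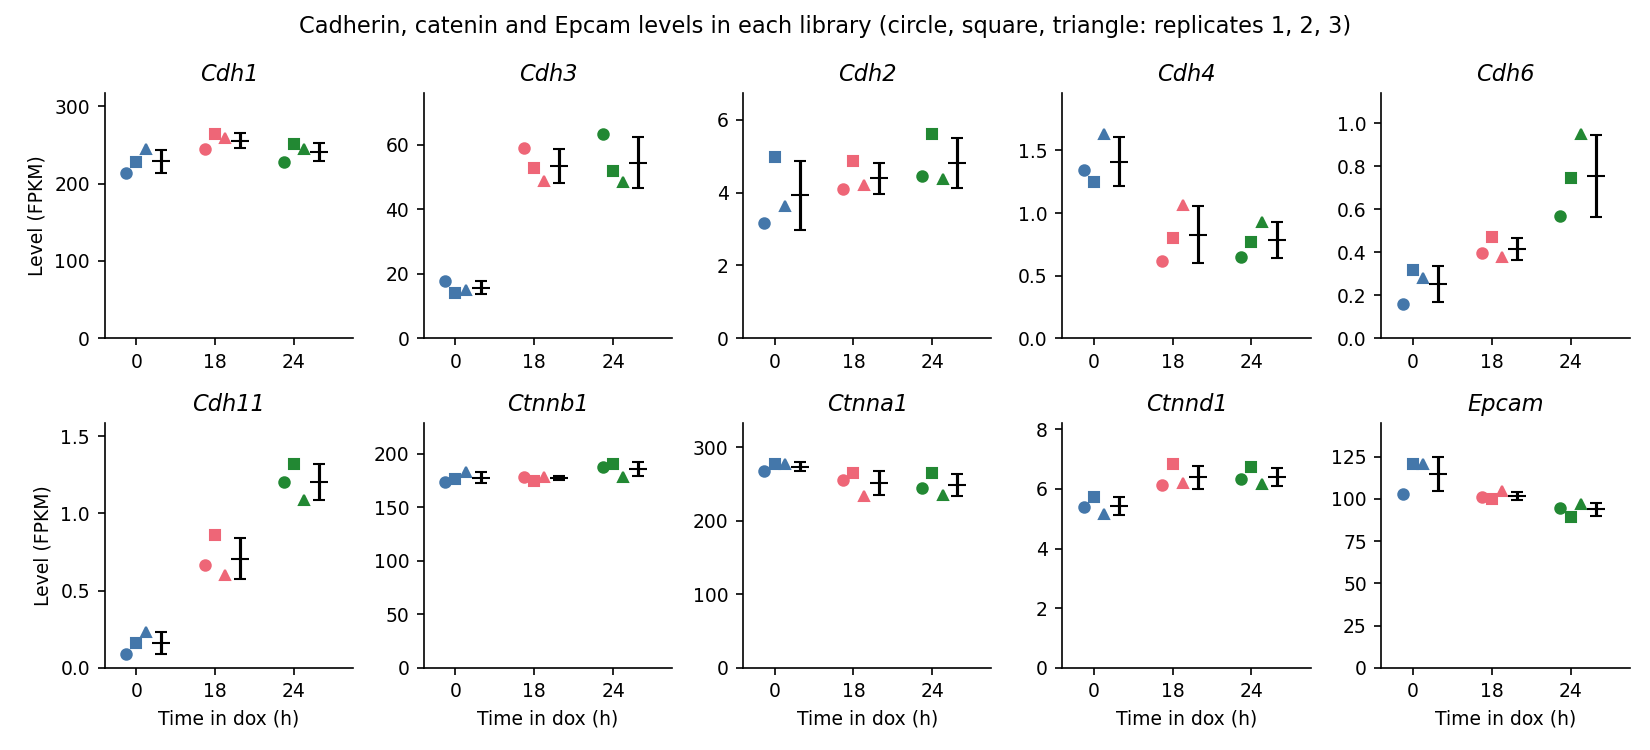
FPKM of each of the 10 genes in each library at 0, 18 and 24 h in dox (circle, square and triangle are replicates 1, 2 and 3; the black bar is the mean with its s.d., n=3; every axis starts at 0 and has its own scale). Cdh3 and Cdh11 are clearly apart between 0 h and the times in dox, whereas Cdh1, Cdh2 and Ctnnb1 overlap between 0 h and 24 h.

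The catenins that link cadherins to actin were tested next, and none passed in limma without the replicate block. Beta-catenin, which binds the cadherin tail and also carries Wnt signals to the nucleus, is encoded by Ctnnb1 (chr9:120929216-120960507). It read 178±5.11 FPKM before dox, 177±1.88 by 18 h and 186±6.50 by 24 h. The later log2FC was 0.06 (interval -0.05 to 0.17, adjusted p=0.442), and -0.014 with median centring. Alpha-catenin, the actin-binding partner of beta-catenin, is encoded by Ctnna1 on chromosome 18. It read 267, 278 and 277 FPKM before dox and 245, 265 and 235 FPKM by 24 h, all below the 0 h libraries. Its log2FC at 24 h was -0.14 (interval -0.29 to 0.01, adjusted p=0.204), and 0.0032 with quantile normalization. Within each replicate number it was lower than at 0 h at both times in dox, and edgeR with the replicate block called it lower at 18 h (adjusted p=0.0492) and 24 h (adjusted p=0.0186), whereas limma with the block did not (adjusted p=0.103 and 0.0635).

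p120-catenin, which binds nearer the membrane and holds cadherins at the surface, is encoded by Ctnnd1 (chr2:84600071-84650765, minus strand). It read 5.38, 5.74 and 5.15 FPKM before dox, 6.13, 6.84 and 6.19 FPKM by 18 h and 6.33, 6.75 and 6.16 FPKM by 24 h. Each library in dox was above each 0 h library, by a log2FC of 0.23 at 18 h (adjusted p=0.107) and 0.24 at 24 h (adjusted p=0.0838). Ctnnd1 passed only with the replicate block, at an adjusted p of 0.0193 and 0.0146. Its low level beside the other catenins is uncertain, because the gene model Gm28635 shares 61.2% of its exonic bases on the same strand and was listed at 0 in all libraries. How reads on both models were counted is not given in the sources used here.

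Epcam (chr17:87635979-87651129, plus strand) encodes an epithelial surface protein that is also high in ESCs. It read 103, 121 and 120 FPKM before dox, 101, 100 and 104 FPKM by 18 h and 94.7, 89.6 and 97.3 FPKM by 24 h. The 24 h libraries were below all others, whereas the 18 h libraries overlapped those at 0 h. The log2FC was -0.17±0.07 at 18 h (adjusted p=0.169) and -0.29±0.07 at 24 h (adjusted p=0.0313), which is 0.820 of the 0 h level (interval 0.735 to 0.914). At 18 h Epcam was called lower by edgeR with the replicate block (adjusted p=0.0215) but not by limma with the block (adjusted p=0.0829). The 24 h call was lost in 11 of 22 alternatives. These were quantile normalization (adjusted p=0.225), no filter (0.0519), no intensity trend (0.0748), only the times compared (0.0779) and the omission of any 1 of 7 libraries, namely 0 h replicates 2 and 3, 18 h replicates 2 and 3 and each 24 h replicate, at an adjusted p of up to 0.113.

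Of the members that passed at 24 h, Epcam and Cdh6 had a promoter in the RefSeq table (GRCm38.p6), and their sequences are shown because E2A and the EMT factors bind E-boxes. Each runs 5′ to 3′ on the gene's strand from 250 bases before to 50 bases after the start site, Epcam at chr17:87635729-87636028 and Cdh6 at chr15:13173626-13173925, with every CANNTG in capitals.
Epcam: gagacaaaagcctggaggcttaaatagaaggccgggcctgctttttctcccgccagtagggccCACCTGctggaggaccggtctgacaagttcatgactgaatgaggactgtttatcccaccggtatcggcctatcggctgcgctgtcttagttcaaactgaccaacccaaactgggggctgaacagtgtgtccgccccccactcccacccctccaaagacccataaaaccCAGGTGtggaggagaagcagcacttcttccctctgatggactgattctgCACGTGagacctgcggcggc
Cdh6: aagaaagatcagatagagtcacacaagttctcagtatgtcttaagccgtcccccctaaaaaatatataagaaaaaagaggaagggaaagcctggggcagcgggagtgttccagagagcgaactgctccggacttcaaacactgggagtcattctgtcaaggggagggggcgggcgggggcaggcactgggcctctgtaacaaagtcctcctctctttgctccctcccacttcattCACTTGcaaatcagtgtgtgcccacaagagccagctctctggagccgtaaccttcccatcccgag
The Epcam window held 3 E-boxes, with first bases at -187 (CACCTG), -19 (CAGGTG) and 31 (CACGTG) relative to the start site. CACCTG is CAGGTG read on the other strand. The Cdh6 window held 1 E-box, CACTTG at -15. Among 32817 mouse promoters of the same length, 72.3% held at least 1 CANNTG and 17.6% at least 3, while 20.2% held CAGGTG on either strand at least once and 2.88% at least 2 times, as Epcam did. Both Ctnnb1 windows in the table held no CANNTG, and of the Ctnnd1 windows 1 held CACATG at -200. That window, chr2:84658928-84659227, lies upstream of the Ctnnd1 coordinates given above. The other, chr2:84650691-84650990, covers the 5′ end of those coordinates and held no CANNTG. A match is a description of the sequence and says nothing of binding. Cdh1, Cdh2, Cdh3, Cdh4, Cdh11 and Ctnna1 were not matched in the table.

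In all, 2 of the 10 genes passed the test at 18 h against 0 h, Cdh3 and Cdh11, both higher and both by at least 2-fold. Among all 17951 genes tested, 7.98% passed, 4.27% as higher and 3.72% as lower, and 1.33% were higher by at least 2-fold. At 24 h against 0 h 5 of the 10 passed, with Cdh3, Cdh11 and Cdh6 higher by at least 2-fold and Cdh4 and Epcam lower by less, beside 11.6% of all genes. Of all genes 6.52% passed as higher, 2.07% as higher by at least 2-fold and 5.11% as lower. With the replicate block 5 of the 10 passed at 18 h (Cdh1, Cdh3, Cdh4, Cdh11 and Ctnnd1) and 7 at 24 h (Cdh2 and Ctnnd1 in addition), beside 21.6% and 26.1% of all genes. Libraries did not overlap between groups for 7 of the 10 at each time, beside 28.1% of all genes at 18 h and 31.3% at 24 h. The median log2FC of the 6 cadherins at 24 h was 0.79, that of the 3 catenins 0.06 and that of all genes 0.00403.

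Between 18 h and 24 h none of the 10 passed the test with limma, beside 0.0223% of all genes, and 2 had an unadjusted p under 0.05. These were Cdh6, with a log2FC of 0.71, and Cdh11, with 0.70, each at an adjusted p of 0.857. Their 24 h libraries were all above their 18 h libraries, and those of Epcam all below. Libraries did not overlap between these times for 3 of the 10, beside 12.9% of all genes. In edgeR with the replicate block 1 of the 10 passed, Cdh11 (adjusted p=0.0474), beside 1.34% of all genes.

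The order of levels shows the same shift among the weak cadherins. At 0 h it ran Ctnna1, Cdh1, Ctnnb1, Epcam, Cdh3, Ctnnd1, Cdh2, Cdh4, Cdh6 and Cdh11, and among neighbours in that order only the libraries of Cdh6 and Cdh11 overlapped. At 24 h Cdh11 stood above Cdh4 and Cdh6 without overlap, and Cdh4 and Cdh6 overlapped each other. Ctnna1 and Cdh1, the highest of the 10, overlapped at both 18 h and 24 h.

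Several EMT factors rose over the same hours. Of 9 factors listed 7 were tested, and 3 passed at 18 h and 5 at 24 h, all higher, beside 4.27% and 6.52% of all genes called higher. At 24 h 4 were past the minimum fold-change, beside 2.07% of all genes. With the replicate block 5 passed at 18 h as well, with Zeb2 and Twist1 in addition, where 21.6% of all genes passed in either direction. Snai1, a Snail family repressor of Cdh1, read 2.15, 2.39 and 1.90 FPKM before dox and 5.05, 4.35 and 5.19 FPKM by 24 h (log2FC 1.15, adjusted p=0.000605). Snai2 read 0.186, 0.164 and 0.272 FPKM before dox and 2.13, 1.91 and 1.27 FPKM by 24 h (log2FC 2.59, adjusted p=0.000330). The Snai2 values at 0 h rest on 9, 8 and 12 reads. Zeb1 was higher at 24 h by a log2FC of 1.09 (adjusted p=0.00763), Zeb2 by 1.25 (adjusted p=0.0314) and Twist1 by 0.65 (adjusted p=0.0451). Zeb1 and Zeb2 were weakly expressed, at 0.370 and 0.355 FPKM on average before dox and 0.892 and 0.979 FPKM by 24 h. Adding 1 FPKM in place of 0.1 gave a 24 h log2FC of 0.90 for Snai1, 1.19 for Snai2, 0.47 for Zeb1 and 0.54 for Zeb2. Of the 4, only Snai2 stayed past 2-fold there. Adding 0.01 FPKM gave 3.03 for Snai2, 1.26 for Zeb1 and 1.47 for Zeb2. At 24 h the Zeb2 call was lost in 6 of 21 alternatives and the Twist1 call in 11 of 22. The Zeb1 call at 18 h was lost in 6 of 21. Snai3 (0.12) and Twist2 (0.35) did not pass at 24 h, and Foxc2 and Prrx1 were below the FPKM filter. At 24 h Snai1 and Snai2 were at 4.86 and 1.77 FPKM on average, beside 241 FPKM for Cdh1.

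**Figure D4:**
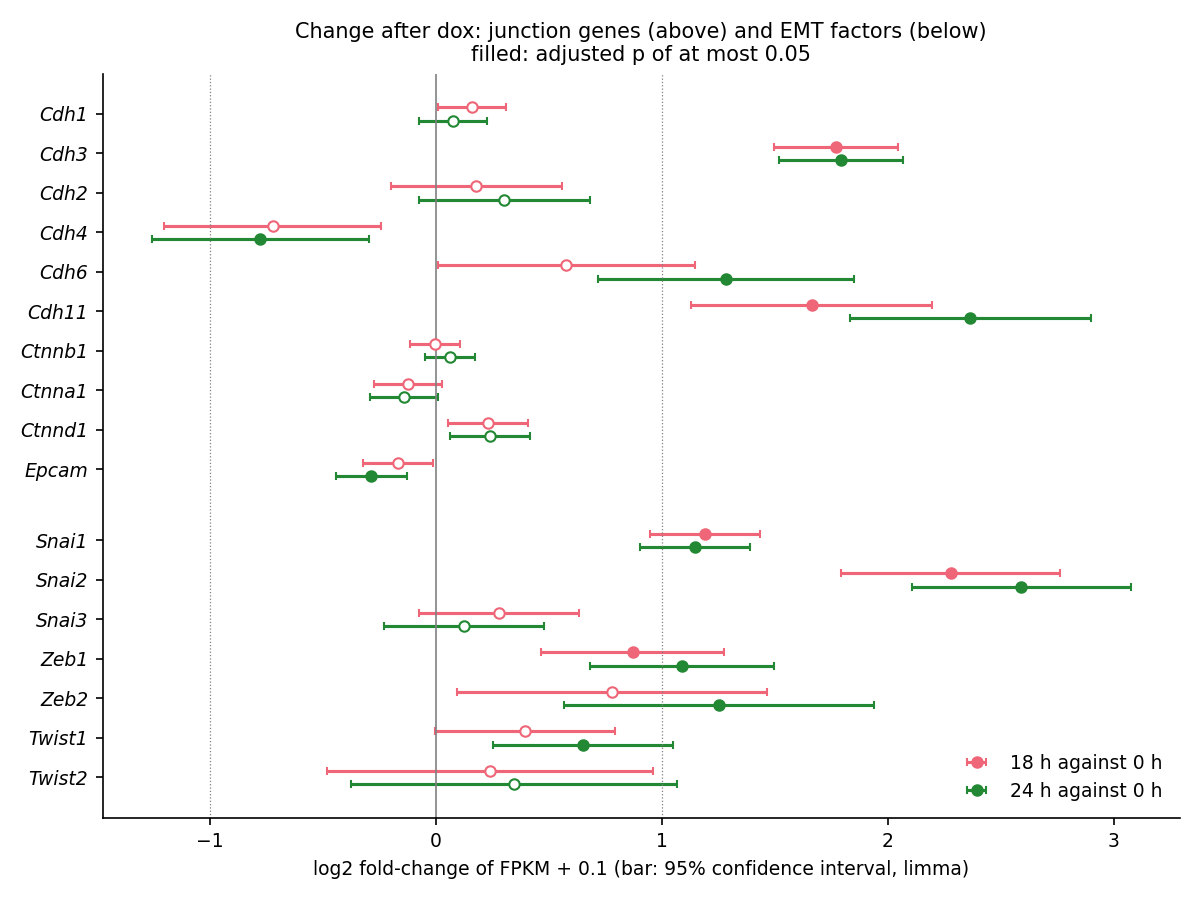
log2FC of FPKM+0.1 at 18 h (red) and 24 h (green) against 0 h for the 10 genes and for 7 EMT factors, with 95% confidence intervals from limma; filled points passed an adjusted p of 0.05 and dotted lines mark a 2-fold change. Snai1, Snai2, Cdh3 and Cdh11 lie well above 0 at both times, while the 24 h intervals of Cdh1 (-0.08 to 0.22) and Cdh2 (-0.07 to 0.68) include 0. The fit drawn has no replicate block. With the block, the 24 h interval was -0.02 to 0.16 for Cdh1 and 0.10 to 0.50, above 0, for Cdh2.

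Mesenchymal markers, which usually rise with a switch, gave calls that depended on the replicate block. Summed over the 11 markers, the level was 349 to 368 FPKM at 0 h, 386 to 467 FPKM at 18 h and 378 to 477 FPKM at 24 h, so each library in dox was above each 0 h library. No test was made of this sum. Of the 11, none passed at 24 h in limma, 2 had an unadjusted p under 0.05, and edgeR and DESeq2 each called 1, Mmp9, as lower. Tagln, an actin-binding protein and the highest of them, read 135 FPKM before dox and 158 FPKM by 24 h (adjusted p=0.180). It was called higher at 18 h and 24 h by edgeR with the replicate block, but not by limma with it (adjusted p=0.0637 and 0.108). Mmp9, a matrix protease, fell at 18 h from 0.405 to 0.118 FPKM (log2FC -1.17, or -0.32 with 1 FPKM added, adjusted p=0.0382), a call lost in 10 of 21 alternatives. The median log2FC of the list at 24 h was 0.13. With the replicate block 2 of the 11 passed as higher at 18 h, Vim and Acta2, and 3 at 24 h, Vim, Acta2 and Mmp2, while Mmp9 passed as lower at both times. That is 3 and 4 of the 11 in either direction, beside 21.6% and 26.1% of all genes. Vim, an intermediate filament of mesenchyme, went from 40.2 to 53.4 FPKM (adjusted p=0.00607 with the block and 0.337 without), and Acta2, smooth muscle actin, from 30.5 to 56.6 FPKM (0.000337 and 0.150).

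Regulators of the epithelial state gave calls in either direction. Of 9 tested, 2 passed at each time, beside 7.98% and 11.6% of all genes. Esrp2, a splicing factor of epithelia, rose at 24 h by a log2FC of 0.43 (adjusted p=0.0126), and Klf5, a factor shared by epithelia and ESCs, fell (-0.81, adjusted p=0.0164). Both had passed the test in the same direction at 18 h, where the Klf5 call was lost in 10 of 22 alternatives (adjusted p of up to 0.123). The other 7 did not pass at either time in limma without the replicate block. Esrp1, the paralog of Esrp2 and the highest of the list over all libraries, read 19.7 FPKM before dox and 17.9 FPKM by 24 h (adjusted p=0.408). Of these 7, Ovol2, a repressor of EMT genes, went from 2.46 to 3.70 FPKM by 18 h and passed there with the replicate block (adjusted p=0.0452 with it and 0.0678 without). Ovol2 was also called higher at 18 h by DESeq2. With the block, edgeR called Ovol2 higher and Grhl1 lower at both times.

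Other genes of the junction gave calls in both directions. Of 58 further cadherin, catenin, adherens junction, desmosome and Epcam partner genes in the table, 43 were tested, and 3 rose and 3 fell at 18 h, while 4 rose and 5 fell at 24 h, with a median log2FC of -0.02 at 24 h. That is 6 and 9 of the 43, beside 7.98% and 11.6% of all genes. With the replicate block 16 passed at 18 h and 19 at 24 h, beside 21.6% and 26.1% of all genes. None of 4 other classical cadherins tested in limma passed at 18 h or 24 h, and none had an unadjusted p under 0.05. Cdh8, below the FPKM filter, was called higher at both times by edgeR and DESeq2, on 3 to 5 reads per library at 0 h and 14 to 20 at 24 h. In edgeR with the replicate block Cdh10, one of the 4, was called lower at 18 h and Cdh18, also below the filter, at 24 h. Cdh24, the highest of the 4, averaged 2.80 FPKM.

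Single junction genes did move. Jup, or plakoglobin, the close relative of beta-catenin and the most abundant of the other catenins, fell at 24 h from 43.8±4.39 to 36.2±1.46 FPKM (adjusted p=0.0470). Among desmosome genes Dsp, the plaque protein that anchors keratin, rose from 14.7±1.81 to 24.0±3.77 FPKM (adjusted p=0.0175), above Pkp2, a plaque protein that was the highest of the list at 0 h (16.7 FPKM). Dsg2, a desmosomal cadherin, fell from 10.5±1.32 to 7.28±1.14 FPKM (adjusted p=0.0429). The tight junction proteins that pair with Epcam split, with Cldn1 rising from 0.638±0.111 to 1.48±0.184 FPKM (log2FC 1.11, adjusted p=0.0101) and Cldn7 falling from 29.5±1.11 to 24.0±1.60 FPKM (adjusted p=0.0256). Adding 1 FPKM in place of 0.1 gave a log2FC of 0.60 for Cldn1. Tspan8, a tetraspanin, fell at 18 h from 0.444±0.0569 to 0.109±0.0522 FPKM (log2FC -1.41, or -0.38 with 1 FPKM added, adjusted p=0.0162) and did not pass at 24 h (adjusted p=0.105). Cd9, a tetraspanin and the highest of the Epcam partners, went from 56.1 FPKM before dox to 47.4 by 18 h and 49.1 by 24 h. It passed as lower when the replicate block was used (adjusted p=0.0148 at 18 h and 0.0285 at 24 h, against 0.118 and 0.184 without). Cd44, another Epcam partner, passed as higher with the block (adjusted p=0.00719 at 18 h and 0.00587 at 24 h, against 0.214 and 0.195 without).

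Of 20 adherens junction partners, Iqgap1, a scaffold that binds beta-catenin, rose at 24 h by a log2FC of 0.39 (adjusted p=0.00705). Adam10, the protease that sheds cadherin ectodomains, rose by 0.41 (adjusted p=0.0476). Actn4, an actin crosslinker, fell (-0.29, adjusted p=0.0125), from 133 to 109 FPKM, and was the highest of the list at 0 h but below Actn1 (112 FPKM) at 24 h. Also lower was Pvrl4, a nectin (log2FC -0.78, or -0.44 with 1 FPKM added, adjusted p=0.0314). At 18 h Iqgap1 and Rapgef1 were the partners that passed in limma without the replicate block. There edgeR without the block called 5, with Actn1 and Ptpn14 higher and Pvrl4 lower in addition. DESeq2 called 6, these 5 and Actn4 as lower. With the block in limma 9 of the 20 passed at 18 h, 5 as higher and 4 as lower, and 11 at 24 h, 8 as higher and 3 as lower. Among them was Ptpn14, a phosphatase, as higher at both times (adjusted p=0.00222 and 0.00530, against 0.0667 and 0.143 in limma without the block). Of all genes, 21.6% and 26.1% passed in the same fit. The calls for Jup, Adam10, Dsg2, Pvrl4, Cldn7, Dsp and Actn4 at 24 h were lost in 12, 13, 9, 6, 6, 3 and 2 of 22 alternatives.

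Genes around Cdh3 and Cdh1 were looked at after their values were seen. Of 8 other genes within 200 kb of the pair, 5 had enough signal to be tested, and none passed at 18 h or 24 h. Their log2FC values at 24 h ran from -0.29 for Tango6, just past the end of Cdh1, to 0.31 for Smpd3. At 18 h they ran from -0.28 for Gm10073 to 0.67 for Has3 (adjusted p=0.0920 for Has3). With the replicate block Tango6 passed at both times (adjusted p=0.0385 and 0.0217) and Zfp90 at 24 h (adjusted p=0.0471).

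For Cdh1, Cdh2 and the 5 members that passed at 24 h, the genes whose levels followed most closely over the 9 libraries were taken from 11893 genes with a mean of at least 1 FPKM. Nearest to Cdh3 were Ldhb, Fgfr2 and Gnaz, at a Pearson r of 0.998, 0.995 and 0.992, and for Cdh11 they were Atp7a, Frs2 and Btbd17 (0.992, 0.983 and 0.982). For Cdh6 they were Txndc11, Wrn and Gpatch11 (0.986, 0.984 and 0.976), for Epcam Sart1, Kat2a and Ndufs8 (0.983, 0.977 and 0.960), and for Cdh4 Dsg2, Mall and Tmem98 (0.982, 0.982 and 0.976). Cdh1 was followed by Ankrd46, Gm7809 and Fam222b (0.988, 0.973 and 0.968), and Cdh2 by Uba6, Yipf5 and Cep19 (0.960, 0.959 and 0.955). The libraries share time points and depth, and these values are a description.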

How the data were processed

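Both the members and the lists of other genes were chosen with earlier results of these data known. The authors made stranded mRNA libraries, aligned reads to GRCm38 with STAR and tested genes with edgeR 3.16.5, and the submitters' processing notes also name cutadapt 1.9. They deposited FPKM values, scaled for gene length and depth, and, for 19210 genes, a scaled per-library signal from which whole reads were recovered for 100% of values (tolerance 0.001 reads). Counting rules are not given in the sources used here. Deposited fold-changes, p-values and mean CPM were not used. Times in dox follow the sample titles, and the labels' protocol text gives other hours.

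log2(FPKM+0.1) of 17951 genes with mean FPKM of at least 0.1 was fitted over 9 libraries in limma 3.58.1 (R 4.3.3) with an intensity trend, with Benjamini-Hochberg adjustment over all genes and a threshold of 0.05. Adjusted p values are from limma unless edgeR 4.0.16 or DESeq2 1.42.0 is named. For 3 libraries against 3 the smallest two-sided exact permutation p is 0.1, so none is given. Replicate numbers pair the libraries, since deviations from group means correlated at 0.211 to 0.548 in all 9 pairs of the same number. In the 18 other pairs they correlated at -0.399 to 0.110. Deviations sum to 0 within a group, so these other pairs are not separate evidence. Replicates differed by more than counting noise (chi-square over degrees of freedom 5.39 to 16.3). All members are named, with genes of the other lists past the threshold and a 2-fold change and the gene of each list with the highest mean over all libraries; others that passed were named after their values were seen. Alternatives changed the pseudocount (1 or 0.01), the filter (none, or at least 1 FPKM), the scaling (quantile or median), the trend, the times in the fit or the replicate block, left out each library, or used edgeR (also with the block or unfiltered) and DESeq2 on recovered reads. Those for genes other than the members were added after seeing the data. Coordinates are from GENCODE M21. The limma and edgeR steps were tested on simulated data with no replicate effect. That simulation left out genes with as few reads at 0 h as Cdh6 and Cdh11. It did not cover the fits with the replicate block.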

Additional observations from a re-analysis of the deposited data

How the results depend on the processing

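Over 22 alternatives Cdh3 and Cdh11 passed the test at 18 h and 24 h wherever they were tested; Cdh6 and Cdh11 fell below a mean of 1 FPKM and were not tested with that filter. At 18 h the members past the test numbered 2 as reported, 1 with that filter, 5 with the replicate block and 2 without any library. They numbered 3 with edgeR or DESeq2 (Cdh4 in addition) and 7 with edgeR and the replicate block. Past the 2-fold minimum they numbered 1 with a pseudocount of 1 or with mean FPKM of at least 1, in place of the 2 reported for 18 h and 3 for 24 h. After 24 h the members past the test numbered 5 as reported, 3 without a filter, with mean FPKM of at least 1, without an intensity trend or with only the times compared, 8 with edgeR and the replicate block, and 2 to 5 without each library in turn (2 without 24 h replicate 2 or 24 h replicate 3). Those past the minimum fold as well numbered 2 to 3 without each library in turn. Between 18 h and 24 h the count was 1 with edgeR and the replicate block and 0 otherwise. The calls changed by the replicate block in limma, for Cdh1, Cdh4 and Ctnnd1 at 18 h and Cdh2 and Ctnnd1 at 24 h, are given above, and it changed no other call of a member.

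Genes of the other junction lists past the test at 18 h numbered 6 as reported, 16 with the replicate block, 10 with edgeR, 22 with edgeR and the replicate block, 13 with DESeq2, 11 with edgeR unfiltered and 2 to 7 without each library (3 without 0 h replicate 1, 2 without 18 h replicate 3). At 24 h they numbered 9 as reported, 5 without an intensity trend or with only the times compared, 19 with the replicate block, 26 with edgeR and the replicate block and 3 to 7 without each library (4 without 0 h replicate 1, 5 without 0 h replicate 3, 3 without 24 h replicate 2 or 3). The causes were not tested.

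Signs changed only for log2FC values that did not pass. At 18 h Ctnnb1 was 0.050 with quantile normalization and -0.022 to 0.018 without each library. At 24 h Cdh1 was -0.0027 and Ctnnb1 -0.014 with median centring, and Ctnna1 0.0032 with quantile normalization. Between 18 h and 24 h median centring gave -0.018 for Cdh3 and -0.033 for Ctnnd1, and quantile normalization 0.048 for Ctnna1 and -0.012 for Ctnnd1. Ctnnd1 was -0.00074 with edgeR, -0.00037 with edgeR and the replicate block, -0.000124 with edgeR unfiltered and -0.0036 with DESeq2. Without each library, that comparison ran from -0.090 to 0.10 for Cdh3, -0.23 to 0.12 for Cdh4, -0.071 to 0.022 for Ctnna1 and -0.030 to 0.056 for Ctnnd1. Of 653 alternative values for members, 590 kept direction and call, 23 lost a call, 17 gained one and 23 changed sign. Cdh6 and Cdh11 rest on 9 to 21 reads per library at 0 h, which limits their fold-changes. Median centring moved all 24 h log2FC values by -0.077.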
